A study of Mus musculus with 6 samples.

Results

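Transforming growth factor beta (TGF-beta) signalling was described through 10 genes, of 34745 rows in the expression table, in lung mesenchymal stromal cells (LMSCs) cultured from tumor-bearing mice. The genes were given by name, and earlier results of these data were known when they were chosen. They were the ligands Tgfb1, Tgfb2 and Tgfb3, the receptors Tgfbr1, Tgfbr2 and Tgfbr3, the latency proteins Ltbp1 and Ltbp2, the induced matrix gene Tgfbi and the inhibitor Smad7. All 10 were found and all 10 passed the minimum of a mean of 1 FPKM (fragments per kilobase of transcript, scaled to the library's total) that 10279 genes passed.

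MMTV-PyMT mice carry the polyoma middle T antigen under a mammary tumor virus promoter that is active in mammary epithelium, and they develop mammary tumors that spread to the lung. RNA was sequenced from LMSCs at passage 3, with 2 libraries at each of 3 stages. These were the adenoma stage (A-LMSC, mice of 6 to 7 weeks in the labels), the pre-metastatic stage (PM-LMSC, 9 to 10 weeks) and the metastatic stage (M-LMSC, 13 to 14 weeks), titled E-, L- and M-LMSCs in the labels and matched to the stages by age order, while the methods state somewhat older ages for the first pair of stages. All groups carried the same transgene, so there was no tumor-free group, and age and stage cannot be told apart. The cells were the CD45- adherent fraction of digested lung, expanded in serum, so that a level here is that of a culture and not of the lung, and in such bulk libraries fewer cells of a type and less RNA per cell cannot be told apart. The labels number the libraries without naming animals, and p-values measure the spread between these libraries. The methods count a further mouse per stage, whose library was not analysed here.

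TGF-beta is secreted in a latent form, in which the ligand stays wrapped in its own propeptide and is tethered to the extracellular matrix by latent TGF-beta binding proteins. Integrins, thrombospondin or proteases release it. The free ligand binds the type II receptor, which phosphorylates the type I receptor, and SMAD proteins then carry the signal to the nucleus, where they bind short SMAD boxes in DNA. In fibroblasts and stromal cells the pathway is known for driving matrix production and the contractile program.

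The stromal identity of the cells was first checked. All 11 stromal markers had a mean of at least 1 FPKM, with Col1a1 between 761 and 1472 FPKM, Vim between 296 and 365 FPKM and Pdgfra between 6.31 and 9.67 FPKM. Ptprc, which encodes CD45, lay between 0.0254 and 0.0987 FPKM, and Epcam between 0 and 0.473 FPKM. Other genes of the haematopoietic list were measured at higher levels, and 5 of its 10 had a mean of at least 1 FPKM, with Lyz2 between 60.6 and 362 FPKM, Cd68 between 5.48 and 12.2 FPKM, Tyrobp between 3.12 and 13.1 FPKM and Csf1r between 2.72 and 4.71 FPKM. Mesothelial markers were present, with a summed FPKM of 123 to 182 in A-LMSC, 301 to 424 in PM-LMSC and 203 to 506 in M-LMSC. Estimated depth was 14.78 to 20.85 mega-fragments per library, which limits the precision of genes near 1 FPKM.

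The upstream DNA of the 2 genes with the largest fitted stage differences, Ltbp1 and Tgfbi, was chosen after their values were seen and is shown because SMAD boxes are the DNA element of the pathway. The sequences come from RefSeq on the plus strand of GRCm38.p6, written 5′ to 3′, with each SMAD box (CAGAC, or GTCTG on the other strand) in capitals. Ltbp1 has 2 annotated starts in RefSeq, at chr17:75005279-75005528 and chr17:75178531-75178780 for the 250 bases before each, and the Tgfbi stretch, chr13:56609336-56609522, ends where the annotated exon begins. For both Ltbp1 starts, the stretch checked after the start was not found in a GENCODE transcript of Ltbp1. For the other member windows it was found in a transcript of their gene.
Ltbp1, first start: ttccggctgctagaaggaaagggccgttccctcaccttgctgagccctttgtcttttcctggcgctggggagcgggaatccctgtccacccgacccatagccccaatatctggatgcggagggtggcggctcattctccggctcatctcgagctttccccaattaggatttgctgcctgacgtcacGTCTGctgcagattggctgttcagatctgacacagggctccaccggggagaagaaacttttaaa
Ltbp1, second start: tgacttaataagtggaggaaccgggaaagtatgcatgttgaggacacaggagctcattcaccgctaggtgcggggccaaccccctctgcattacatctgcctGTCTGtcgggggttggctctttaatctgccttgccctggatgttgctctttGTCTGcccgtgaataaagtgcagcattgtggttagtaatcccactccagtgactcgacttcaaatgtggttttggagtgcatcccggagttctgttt
Tgfbi: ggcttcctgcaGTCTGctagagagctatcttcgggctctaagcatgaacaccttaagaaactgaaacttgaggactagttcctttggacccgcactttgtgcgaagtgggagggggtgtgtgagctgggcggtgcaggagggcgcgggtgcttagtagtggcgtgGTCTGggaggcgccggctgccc
The window before the first Ltbp1 start holds 1 SMAD box and the second holds 2. The Tgfbi window holds 2. Windows of 250 bases with a SMAD box were common, at 42.2% of 32841 RefSeq windows, and 7 of the 9 windows of the members held one. The 8-base palindrome GTCTAGAC was in 0.167% of all windows and in 0 of the 9, and the AP-1 motif TGANTCA in 6.75% and 0 of the 9. A match is a description of letters, and binding was not measured here.

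The ligand messages were dominated by Tgfb3 at every stage. Tgfb3, a ligand known for its part in palate fusion and scarless repair, ranked first of the 10 genes with a mean of 125 FPKM over the 6 libraries and stood at percentile 96.9 of the tested genes. It took 84.5% ± 1.01 (SD, n = 2) of the summed FPKM of the 3 ligands in A-LMSC, 86.1% ± 0.965 (n = 2) in PM-LMSC and 83.1% ± 3.23 (n = 2) in M-LMSC. Tgfb1, the ligand most studied in fibrosis, took between 8.83% and 12.0% of the sum over the libraries, and Tgfb2 took between 3.44% and 8.20%. These are shares of values per length, so they compare transcripts and not proteins.

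**Figure D1:**
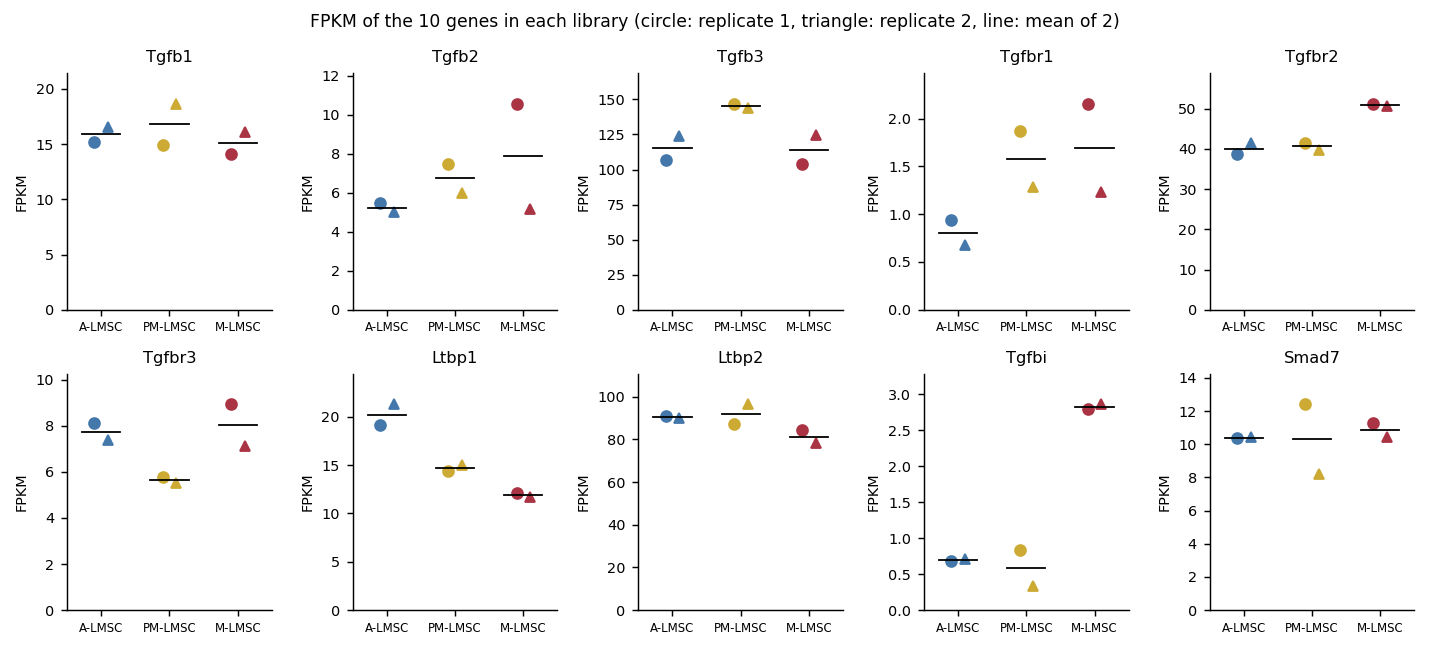
FPKM of each of the 10 genes (one panel per gene) in the 6 libraries by stage, with a point per library and a line at the stage mean. The 2 M-LMSC points of Tgfbi, at 2.80 and 2.86 FPKM, lie above the other 4, and both M-LMSC points of Ltbp1, at 12.1 and 11.7 FPKM, lie below them.

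Tgfb3 (chr12:86056745-86079041, minus strand, GRCm38) was at 107 and 124 FPKM in A-LMSC replicates 1 and 2, at 147 and 144 FPKM in PM-LMSC and at 104 and 125 FPKM in M-LMSC. Both PM-LMSC libraries were above all others, while the A-LMSC and M-LMSC libraries overlapped. The PM-LMSC mean was 1.26 times that of A-LMSC. The fitted difference was 0.34 on the log2(FPKM + 1) scale (SE 0.14), with an adjusted p of 0.745 in limma, and M-LMSC was 0.35 below PM-LMSC on that scale (fit value -0.35, limma adjusted p = 0.526), or -0.22 without M-LMSC replicate 1. Part of the Tgfb3 exons, 420 bases, overlaps genes on the opposite strand, and whether the counting used strand is not given in the sources used here.

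Tgfb1 (chr7:25687002-25705077, plus strand) was at 15.2 and 16.6 FPKM in A-LMSC, 14.9 and 18.6 FPKM in PM-LMSC and 14.1 and 16.1 FPKM in M-LMSC. The 3 stages overlapped, and the difference between M-LMSC and A-LMSC was -0.07 on the log2 scale (SE 0.14, limma adjusted p = 0.814). Tgfb2 (chr1:186622792-186705989, minus strand), a ligand that needs the co-receptor Tgfbr3 to bind efficiently, was at 5.47 and 5.005 FPKM in A-LMSC, 7.48 and 6.01 FPKM in PM-LMSC and 10.5 and 5.17 FPKM in M-LMSC. The M-LMSC libraries lay on either side of the PM-LMSC ones. Its fitted difference between M-LMSC and A-LMSC was 0.44 (SE 0.28, limma adjusted p = 0.494), and without M-LMSC replicate 1 it was -0.014.

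Of the receptors, Tgfbr2 made up most of the summed FPKM. It encodes the type II receptor that binds the ligand first, and took between 81.05% and 85.8% of the summed FPKM of Tgfbr1, Tgfbr2 and Tgfbr3. Tgfbr2 (chr9:116084293-116175360, minus strand) was at 38.7 and 41.4 FPKM in A-LMSC, 41.5 and 39.9 FPKM in PM-LMSC and 51.2 and 50.7 FPKM in M-LMSC. The M-LMSC libraries were above all 4 others, and M-LMSC stood at 1.27 times A-LMSC. The fitted difference was 0.34 on the log2 scale (SE 0.10, limma adjusted p = 0.219).

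Tgfbr1 (chr4:47353222-47414931, plus strand), the type I receptor kinase, was the lowest of the 10 genes by mean, at percentile 6.94 of the tested genes. It was at 0.941 and 0.676 FPKM in A-LMSC, 1.88 and 1.29 FPKM in PM-LMSC and 2.15 and 1.23 FPKM in M-LMSC, which corresponds to roughly 77 to 233 fragments per library. All 4 later-stage libraries were above both A-LMSC libraries. The mean was 1.96 times the A-LMSC mean in PM-LMSC and 2.09 times in M-LMSC, and the fitted differences were 0.51 (limma adjusted p = 0.739) and 0.56 (limma adjusted p = 0.290), each with SE 0.20. The M-LMSC difference was 0.31 without M-LMSC replicate 1 and 0.81 without M-LMSC replicate 2, and reached 0.94 at most over all alternatives. With the replicate number as a block in limma, the adjusted p of the M-LMSC difference was 0.0509, the lowest of a range up to 0.935 over the alternatives.

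Tgfbr3 (chr5:107106570-107289629, minus strand), also called betaglycan, presents the ligand to the signalling receptors. It was at 8.11 and 7.39 FPKM in A-LMSC, 5.77 and 5.50 FPKM in PM-LMSC and 8.93 and 7.15 FPKM in M-LMSC. Both PM-LMSC libraries were below all others. The PM-LMSC mean was 0.727 times the A-LMSC mean, with a fitted difference of -0.40 (SE 0.14, limma adjusted p = 0.626). A stretch of 297 bases of Tgfbr3 exons overlaps a gene model on the same strand, so part of its value is uncertain.

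**Figure D2:**
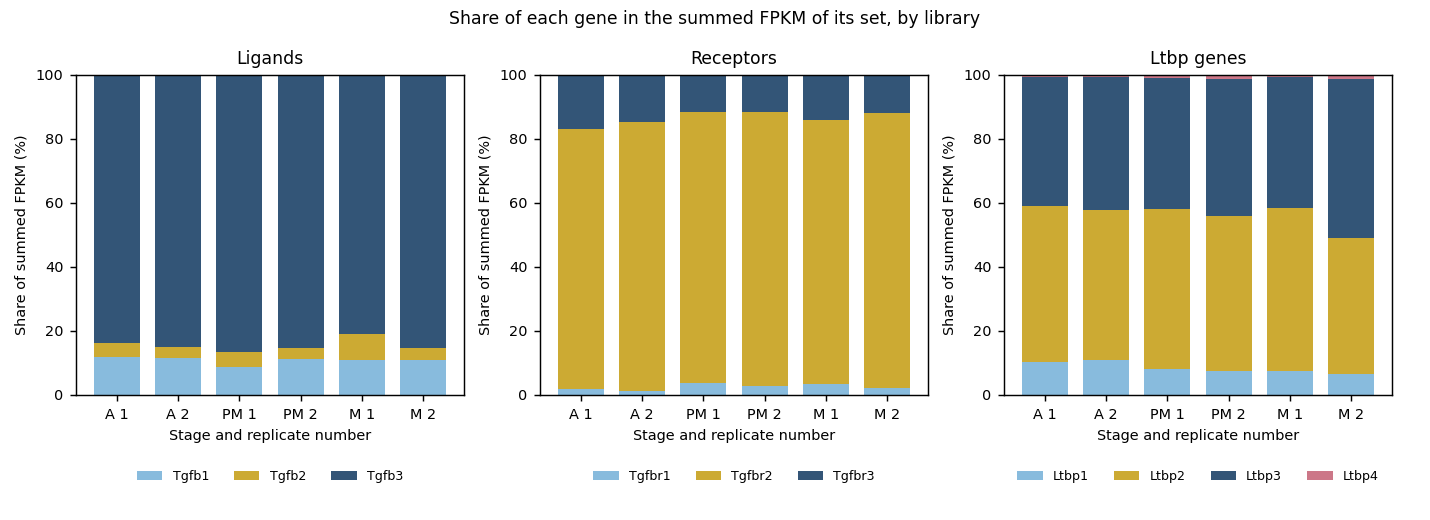
Share of summed FPKM in percent within the ligands, the receptors and the 4 Ltbp genes, as stacked bars for the 6 libraries. Tgfb3 holds between 80.9% and 86.7% of the ligand sum and Tgfbr2 between 81.05% and 85.8% of the receptor sum in each bar.

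Ltbp1 was lower at the later stages, and Ltbp2 varied least of all 10 genes. Ltbp2 and Ltbp1 both encode latent TGF-beta binding proteins of the fibrillin family, and Ltbp1 is the one that tethers the latent ligand complex, while Ltbp2 does not bind it. Ltbp1 (chr17:75005568-75392512, plus strand) was at 19.2 and 21.3 FPKM in A-LMSC, 14.4 and 14.98 FPKM in PM-LMSC and 12.1 and 11.7 FPKM in M-LMSC. The stages did not overlap and lay in the order A-LMSC, PM-LMSC, M-LMSC from high to low. The mean in M-LMSC was 0.590 times that in A-LMSC.

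The fitted difference in Ltbp1 between M-LMSC and A-LMSC was -0.71 on the log2 scale (SE 0.11), at -0.62 and -0.81 within the replicate numbers. Its limma adjusted p was 0.0875, and 0.0223 with the replicate block, so that the call depends on the block. Over all alternatives its limma adjusted p ran from 0.0223 to 0.622 and the fitted difference from -0.79 to -0.64. PM-LMSC against A-LMSC gave -0.43 (SE 0.11, limma adjusted p = 0.449), and M-LMSC against PM-LMSC gave -0.28 (SE 0.11, limma adjusted p = 0.526). Both later stages together stood -0.57 from A-LMSC (limma adjusted p = 0.131, and 0.0342 with the block). As a share of the summed FPKM of the 4 Ltbp genes, Ltbp1 was 10.6% ± 0.513 (SD, n = 2) in A-LMSC, 7.87% ± 0.503 in PM-LMSC and 6.87% ± 0.698 in M-LMSC.

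Ltbp2 (chr12:84783212-84876532, minus strand) was at 91.1 and 90.2 FPKM in A-LMSC, 87.2 and 96.4 FPKM in PM-LMSC and 84.2 and 78.1 FPKM in M-LMSC. It was the second most abundant of the 10 genes and had the narrowest range, 0.30 on the log2 scale. Its fitted difference between M-LMSC and A-LMSC was -0.16 (SE 0.11, limma adjusted p = 0.520), and 764 bases of its exons overlap a gene on the opposite strand.

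Tgfbi had the widest range of the 10 genes, 1.54 on the log2 scale. It encodes an extracellular matrix protein that was first described as induced by TGF-beta. Tgfbi (chr13:56609523-56639562, plus strand) was at 0.681 and 0.704 FPKM in A-LMSC, 0.834 and 0.329 FPKM in PM-LMSC and 2.80 and 2.86 FPKM in M-LMSC. The M-LMSC libraries were above the other 4, and PM-LMSC overlapped A-LMSC. The level was low, at roughly 20 to 54 fragments in the 4 earlier libraries and 175 and 179 in M-LMSC.

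The M-LMSC mean of Tgfbi was 4.09 times the A-LMSC mean and 4.86 times the PM-LMSC mean. The fitted differences were 1.18 and 1.29 (SE 0.16 each), with limma adjusted p of 0.0805 and 0.0961. With the replicate block they were 0.0171 and 0.0397, and with the block and a correction for GC content and length they were 0.0314 and 0.0867. Over all alternatives the limma adjusted p ran from 0.0171 to 0.443 against A-LMSC and from 0.0397 to 0.347 against PM-LMSC. PM-LMSC against A-LMSC gave -0.12 (limma adjusted p = 0.920), and 0.12 without PM-LMSC replicate 2. Haematopoietic markers moved with Tgfbi. Their summed FPKM, most of it Lyz2, was 124 to 132 in A-LMSC, 74.0 to 166 in PM-LMSC and 287 to 401 in M-LMSC. Of the 10, 9 were highest in both M-LMSC libraries, and none was at 0 in all libraries. The share was 11.8% over tested genes, which have a mean of at least 1 FPKM, as 5 of these 10 do. No such share was taken over genes below that mean. Epithelial markers summed to 0.413 to 1.57 FPKM in A-LMSC, 0.852 to 0.958 FPKM in PM-LMSC and 2.76 to 4.18 FPKM in M-LMSC. Of these 10, 7 were highest in both M-LMSC libraries, but 0 had a mean of at least 1 FPKM. Endothelial markers summed to 1.49 to 1.55, 1.56 to 1.69 and 2.53 to 2.63 FPKM, most of it Kdr. Of those 5, 2 were highest in both M-LMSC libraries, and Cdh5 had a lower mean in M-LMSC (0.144 FPKM) than in A-LMSC (0.247 FPKM). The part of these 3 groups of markers in the Tgfbi difference was not tested.

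**Figure D3:**
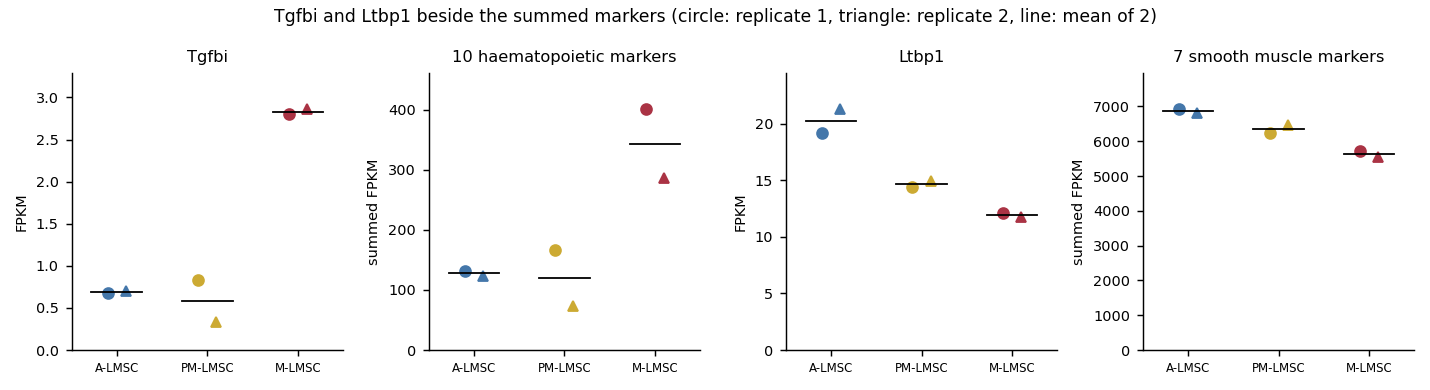
Summed FPKM of the haematopoietic and the smooth muscle and pericyte markers beside the FPKM of Tgfbi and Ltbp1 in the 6 libraries. The haematopoietic sum is between 287 and 401 FPKM in M-LMSC and at most 166 FPKM in the other libraries.

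Of the 7 smooth muscle and pericyte markers, Acta2 and Cnn1 had stage means in the same order as Ltbp1, at 6262, 5686 and 5116 FPKM for Acta2 and 406, 310 and 291 FPKM for Cnn1 in A-LMSC, PM-LMSC and M-LMSC. The other 5 did not share that order. The PM-LMSC mean was above the A-LMSC mean for Myh11, Des, Rgs5, Cspg4 and Notch3, and Des stood at 147, 305 and 186 FPKM. The summed FPKM of the list, most of it Acta2, was 6822 to 6916 in A-LMSC, 6241 to 6480 in PM-LMSC and 5557 to 5730 in M-LMSC, and 6 of the 7 had a mean of at least 1 FPKM, with Rgs5 between 0 and 0.286 FPKM. Their part in the Ltbp1 difference was not tested. Smad7 (chromosome 18, plus strand), the inhibitory SMAD that blocks the type I receptor, was at 10.4 and 10.4 FPKM in A-LMSC, 12.4 and 8.23 FPKM in PM-LMSC and 11.2 and 10.4 FPKM in M-LMSC. The PM-LMSC libraries spanned all the others, and M-LMSC against A-LMSC gave 0.05 (SE 0.18, limma adjusted p = 0.8997).

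By mean FPKM the order was Tgfb3, Ltbp2, Tgfbr2, Tgfb1, Ltbp1, Smad7, Tgfbr3, Tgfb2, Tgfbi and Tgfbr1. The ranges over libraries of the first 3 did not overlap with those of their neighbours. Tgfb1 and Ltbp1 overlapped, as did Ltbp1 and Smad7, Smad7 and Tgfbr3, Tgfbr3 and Tgfb2, and Tgfbi and Tgfbr1.

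In the comparison of PM-LMSC with A-LMSC, 0 of the 10 genes passed an adjusted p of 0.05 in limma, where 0.0389% of all tested genes did, and 4 had an unadjusted p under 0.05, against 6.53% of tested genes. With the replicate block 0 passed, against 0.292%, and also with the block and the correction, against 0.0584%. The libraries of 5 did not overlap between the stages, against 39.3% of tested genes. Tgfb2, Tgfb3 and Tgfbr1 were higher, against 19.6% of tested genes, and Ltbp1 and Tgfbr3 lower, against 19.7%. The median fitted difference of the 10 was 0.019, and 0.011 over all tested genes.

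M-LMSC against A-LMSC, which uses the same A-LMSC libraries, also gave 0 of the 10 in limma, against 0.0681% of tested genes, with 4 at an unadjusted p under 0.05 against 14.6%. With the replicate block 2 passed, Tgfbi higher and Ltbp1 lower, against 3.92% of tested genes, and the same 2 with the correction added, against 3.23%. The libraries of 6 did not overlap, against 51.5%, with 4 higher (27.1% of tested genes) and 2 lower (24.4%). The 4 were Tgfbi, Tgfbr1, Tgfbr2 and Smad7, and the 2 were Ltbp1 and Ltbp2. Smad7 was nearly tied, with replicate 2 at 10.405 FPKM in M-LMSC and 10.404 FPKM in A-LMSC. M-LMSC against PM-LMSC gave 0 in limma, against 0.0292%, and 5 at an unadjusted p under 0.05 against 8.94%. With the block 1 passed, Tgfbi, against 0.418%, and 0 with the correction added, against 0.0681%. The libraries of 6 did not overlap, against 34.5%, with 3 higher (17.8%) and 3 lower (16.7%). For both later stages together against A-LMSC, limma gave 0, against 0.126%, with 3 at an unadjusted p under 0.05 against 11.2%, and Ltbp1 passed with the block, against 2.05%, and with the correction added, against 1.23%. All 4 later libraries lay on 1 side of both A-LMSC libraries for 2 genes, against 21.4%, Tgfbr1 higher (10.7%) and Ltbp1 lower (10.7%).

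Both M-LMSC libraries lay on 1 side of the other 4 for 4 of the 10 genes, against 23.5% of tested genes. Tgfbi and Tgfbr2 were higher, against 11.8%, and Ltbp1 and Ltbp2 lower, against 11.6%. Replicate 1 was above replicate 2 at all 3 stages for Tgfb2, Tgfbr1 and Tgfbr3, against 26% of tested genes, and below it for Tgfb1, against 21.2%.

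**Figure D4:**
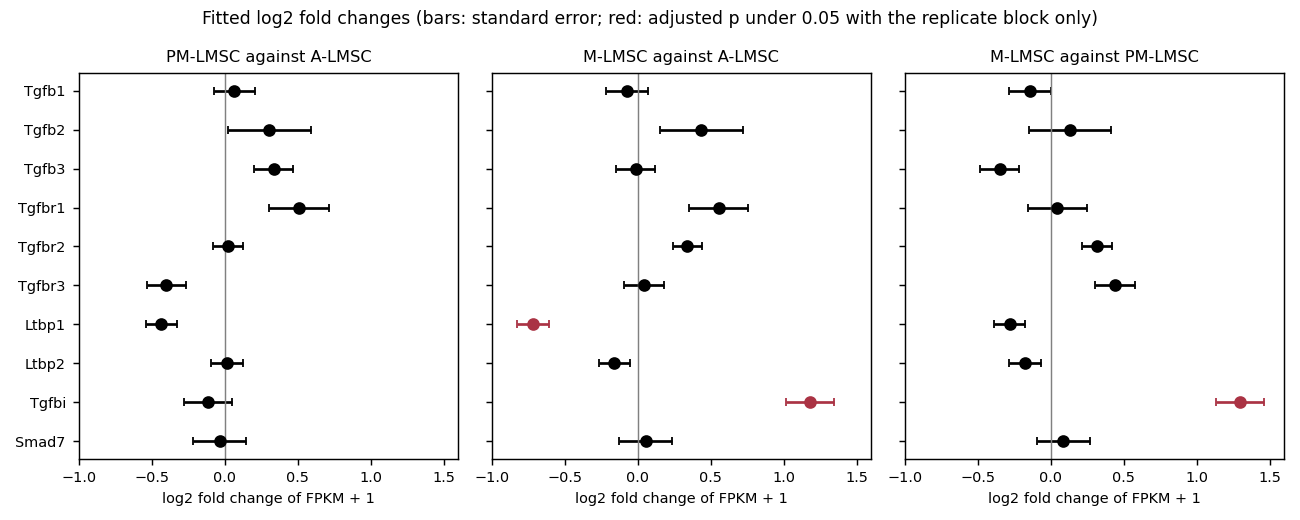
Fitted log2 fold changes of the 10 genes in the comparisons, as points with bars of 1 standard error, in red where the adjusted p was under 0.05 with the replicate block only. Tgfbi at 1.18 and 1.29 and Ltbp1 at -0.71 lie farthest from 0.

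The rest of the pathway was described from 4 further lists. Of other latency and activation genes 14 of 18 were tested, and 8 of 8 receptors and modulators, 10 of 10 SMADs and their regulators and 19 of 20 target genes. In limma, 0 of each list passed in each comparison. At an unadjusted p under 0.05 in M-LMSC against A-LMSC there were 3 higher and 1 lower latency genes, 2 lower receptor genes, 0 SMAD genes and 5 higher target genes, where 14.6% of all tested genes were under that p. The list medians of that comparison were 0.15, 0.026, -0.046 and 0.070, beside 0.027 over all tested genes.

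With the replicate block 3 of these genes passed in M-LMSC against A-LMSC, all higher, where 3.92% of all tested genes passed. Mmp2, a gelatinase that can release latent TGF-beta, was at 60.5 and 61.5 FPKM in A-LMSC, 88.7 and 111 FPKM in PM-LMSC and 86.7 and 155 FPKM in M-LMSC (fitted difference 0.92, limma adjusted p = 0.209, and 0.0456 with the block). Dcn, encoding the proteoglycan decorin that binds TGF-beta, was at 66.4 and 50.7, 57.6 and 68.6, and 117 and 141.2 FPKM in the same order (1.13, limma adjusted p = 0.0875, and 0.0239 with the block). Cdkn2b, a cell cycle inhibitor induced by TGF-beta, was at 38.6 and 33.3, 52.0 and 60.6, and 72.7 and 60.3 FPKM (0.87, limma adjusted p = 0.0960, and 0.0253 with the block). Cdkn2b also passed with the block for both later stages against A-LMSC (0.75, limma adjusted p = 0.131, and 0.0363 with the block), where 2.05% of tested genes passed. With the correction added, Mmp2 (limma adjusted p = 0.0428) and Cdkn2b (0.0315) still passed and Dcn (0.0856) did not. The libraries of these 3 genes did not overlap between M-LMSC and A-LMSC, which held for 51.5% of tested genes.

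**Figure D5:**
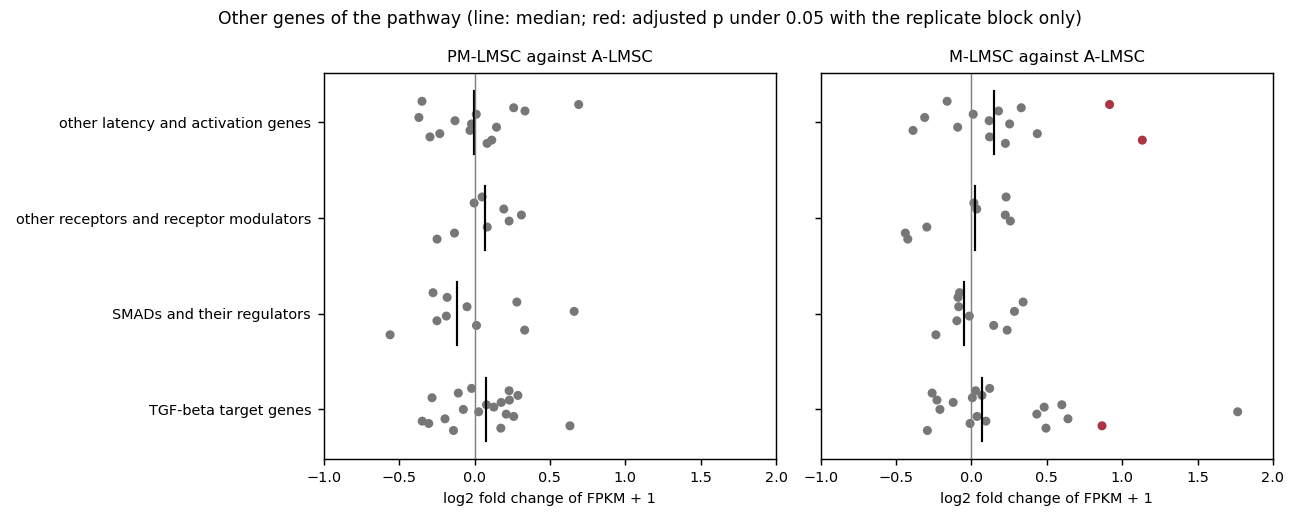
Fitted log2 fold changes of the other pathway genes by list, with a point per gene and a line at the list median, in red where the adjusted p was under 0.05 with the replicate block only. Mmp2, Dcn and Cdkn2b are the red points in M-LMSC against A-LMSC, at 0.92, 1.13 and 0.87.

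The most abundant genes of these lists were matrix and contractile genes. Thbs1, encoding thrombospondin 1, an activator of latent TGF-beta, was between 914 and 1399 FPKM over the libraries. Acta2, smooth muscle actin, was between 4986 and 6311 FPKM. The highest receptor modulator was Pmepa1, a feedback inhibitor, between 41.5 and 50.3 FPKM, and the highest SMAD regulator was the co-repressor Ski, between 23.9 and 47.3 FPKM.

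Likeness of pattern was described for 2 genes by Pearson's r of log2 values over the 6 libraries, which share stages and depth. For Tgfb3 the most alike were Pwwp2b (r = 0.9952), Mpp2 (r = 0.9946) and Dock8 (r = 0.9946), and 38 genes reached 0.9. For Tgfbi they were Acadm (r = 0.9995), Tyrobp (r = 0.9973) and Fam120b (r = 0.9954), and 301 genes reached 0.9. Tyrobp, one of the haematopoietic markers, was at 4.59 and 4.25 FPKM in A-LMSC, 4.92 and 3.12 FPKM in PM-LMSC and 13.1 and 12.1 FPKM in M-LMSC.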

How the data were processed

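The authors deposited FPKM values for 6 libraries, 1 column each. The submitters' processing notes name TopHat2 2.0.9 and mm10. The counter and annotation are not given in the sources used here. Of the identifiers 34267 were found in GENCODE M21 (GRCm38), and 478 were not. A gene name was repeated in 57 cases and its first row was used. The members and lists were chosen with earlier results of these data known.

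Genes that reached 1 FPKM on average were fitted as log2(FPKM + 1) in R 4.3.3 with limma 3.58.1 (lmFit, eBayes with trend), with 1 mean per stage over all 6 libraries and Benjamini-Hochberg adjustment over 10279 genes at 0.05, two-sided. A fold change on this scale understates that of low genes. The fit was also run on simulated data, with pass conditions set only for the fit without the replicate block. Those conditions do not bear on calls made with the block. Alternatives were a pseudocount of 0.1, no filter, quantile normalization, median centring, only the stages compared, a minimum log2 change of 1, each library left out, and the replicate number as a block. A correction for GC content and length (lowess span 0.3) was added after seeing the data. Deviations of same-numbered libraries from their stage means correlated at 0.238 (A-LMSC and PM-LMSC), 0.307 (A-LMSC and M-LMSC) and 0.491 (PM-LMSC and M-LMSC). All were over the set threshold of 0.1. The replicate number was used as a block only in the alternatives, and the main fit did not pair libraries. The labels do not link same-numbered libraries of different stages, so any pairing is inferred from these same data.

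Depth was estimated from the spacing of low values. In genes with 1 annotated transcript 96.05% to 96.82% of values of up to 10 fragments lay within 0.1 of whole, but 20.07% to 22.05% did with several transcripts, so counts were not recovered and no count model was used. Genes named were the 10 members, the pathway genes called in any fit or among the 4 most abundant of their list, and the 3 genes most alike to the top ligand and to the member of widest range. Not all of these are printed, and 1 gene of the lists is not reported here. Promoter windows are from RefSeq, with 7 of 10 members matched (not Tgfb3, Tgfbr3 or Smad7). Near-identical transcripts were sought with blastn 2.17.0 (95% identity over 200 bases). Tables were made with Python 3.11.15 and pandas 2.3.3.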

Additional observations from a re-analysis of the deposited data

Results flagged for a closer look

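2 of the 51 tested genes of the pathway lists, 3.92%, had the libraries of the later stages on opposite sides of both A-LMSC libraries, and 2.88% of all 10279 tested genes did. Fbn1, encoding the fibrillin that anchors latent TGF-beta complexes, was at 118.8 and 117.8 FPKM in A-LMSC, 90.1 and 103 FPKM in PM-LMSC and 119.2 and 139 FPKM in M-LMSC. M-LMSC replicate 1 was thus barely above A-LMSC, and M-LMSC against A-LMSC gave 0.12 (limma adjusted p = 0.663). The difference between M-LMSC and PM-LMSC was 0.42 on the log2 scale and did not pass limma's test (adjusted p = 0.415). Snai1, a transcription factor of the TGF-beta response, was at 21.6 and 21.3 FPKM in A-LMSC, 26.4 and 24.3 FPKM in PM-LMSC and 16.6 and 19.9 FPKM in M-LMSC. Its difference was -0.46 and did not pass either (limma adjusted p = 0.376).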

How the results depend on the processing

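Under the alternatives, 469 of 510 fitted member values kept their direction and side of the threshold, 34 reversed and 7 came to pass the threshold, all with the replicate block. The cause of the changes was not tested. The replicate block (pairing) raised the genes called from 4 to 30 in PM-LMSC against A-LMSC, from 7 to 403 in M-LMSC against A-LMSC, from 3 to 43 in M-LMSC against PM-LMSC and from 13 to 211 for both later stages against A-LMSC, and the members called from 0 to 2, 1 and 1 in the last 3. With the block and the GC and length correction, genes called were 332 in M-LMSC against A-LMSC, 7 in M-LMSC against PM-LMSC and 126 for both later stages, with 2, 0 and 1 members, and the block changed no other member call. Genes called in the same 4 comparisons ran from 1 to 28, 1 to 90, 2 to 25 and 0 to 93 with 1 library left out, with the highest counts where an M-LMSC library was left out. Without a filter they were 1 in PM-LMSC, 3 in M-LMSC and 0 in both later stages, each against A-LMSC. With only the stages compared they were 21 in PM-LMSC and 1 in M-LMSC, each against A-LMSC, and centred on medians 7 for both later stages. The median of the members in M-LMSC against PM-LMSC ran from -0.13 to 0.24 with 1 library left out.

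Of the 40 fitted differences 15 reversed under some alternative, and the largest of these was 0.44 for Tgfb2. In PM-LMSC against A-LMSC, Tgfbr2 was -0.020 with quantile normalization and -0.0086 centred on medians, Ltbp2 was -0.015 centred and Smad7 0.0051 with block and correction. In M-LMSC against A-LMSC, Tgfb3 was 0.015 with quantile normalization and 0.047 with block and correction, and Tgfbr3 -0.0075 centred and -0.058 with block and correction. For both later stages, Tgfb1 was 0.046 with block and correction, and Smad7 -0.0037 with quantile normalization and -0.030 centred. With 1 library left out, PM-LMSC against A-LMSC ran from -0.084 to 0.22 for Tgfb1, -0.025 to 0.070 for Tgfbr2, -0.056 to 0.087 for Ltbp2, -0.35 to 0.12 for Tgfbi and -0.30 to 0.24 for Smad7. M-LMSC against A-LMSC ran from -0.16 to 0.017 for Tgfb1, -0.014 to 0.89 for Tgfb2, -0.14 to 0.12 for Tgfb3 and -0.10 to 0.18 for Tgfbr3. M-LMSC against PM-LMSC ran from -0.29 to 0.010 for Tgfb1, -0.32 to 0.58 for Tgfb2, -0.20 to 0.30 for Tgfbr1 and -0.18 to 0.36 for Smad7. Both later stages ran from -0.079 to 0.072 for Tgfb1 and -0.12 to 0.14 for Smad7. A stage left with 1 library is assumed to vary like the others. With 2 libraries a stage, depth limits Tgfbr1 and Tgfbi most.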
